A study of Mus musculus with 3 samples.

Results

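The regions described here were the NR2F2 ChIP-seq peaks that lay just upstream of a transcription start site (TSS) without touching it. A peak was taken when it overlapped no TSS, when the nearest TSS of a curated RefSeq transcript was at least 1 and at most 1000 bp from its nearer edge, and when the peak was upstream in the direction of that transcript. Peaks with TSSs of genes on both strands within 1000 bp were dropped, because upstream is then not defined. Of 10069 peaks, 1099 met the rule (10.9%), and they belonged to 1087 genes. Binding counts played no part in the choice, but every peak had been called by the authors on the merged ChIP reads that are counted below.

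NR2F2 (COUP-TFII) was immunoprecipitated from whole E14.5 testes of CD-1 mice, an outbred stock, with no engineered allele or treatment named for them. There were 2 NR2F2 ChIP libraries, made from sheared chromatin of 30 pooled testes and described by the study as independent experiments, and 1 input library of unprecipitated chromatin with the same tissue and age labels. The values were raw read counts in each 300 bp peak (mm10). A whole testis mixes interstitial, Sertoli, germ, endothelial and other cells, so a low count cannot tell weak binding in many cells from binding in few, and counts at peaks allowed no check of the tissue label against marker expression.

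The DNA just upstream of a TSS is the proximal promoter, where sequence-specific factors bind next to the core promoter that positions RNA polymerase II. NR2F2 is an orphan nuclear receptor with a zinc finger DNA-binding domain. It binds the hexamer AGGTCA and close variants, as dimers on repeats or on a single extended half-site, and can repress or activate transcription. In the fetal testis it marks the non-steroidogenic cells of the interstitium, the tissue between the testis cords in which fetal Leydig cells make androgens.

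The 7 sequences below let the motif be seen in its setting. They are the 5 upstream peaks with the highest ChIP counts among those that held AGAGGTCA or AGGGGTCA (an extended half-site, searched on both strands), and the peaks of 2 nuclear receptor genes, Nr2f2 itself and Thrb. Each is the RefSeq sequence of the GRCm38 assembly (mm10), written 5′ to 3′ in the direction of the transcript, with plus-strand coordinates. Capitals mark the extended motif or, in Thrb, the core GGGTCA, read on either strand. Baz1b encodes a chromatin remodelling subunit, Hspa5 the endoplasmic reticulum chaperone BiP, Ptma prothymosin alpha, Plk2 a polo-like kinase and Amz2 a metallopeptidase. All but Nr2f2 are on the plus strand.
Baz1b, chr5:135186846-135187145: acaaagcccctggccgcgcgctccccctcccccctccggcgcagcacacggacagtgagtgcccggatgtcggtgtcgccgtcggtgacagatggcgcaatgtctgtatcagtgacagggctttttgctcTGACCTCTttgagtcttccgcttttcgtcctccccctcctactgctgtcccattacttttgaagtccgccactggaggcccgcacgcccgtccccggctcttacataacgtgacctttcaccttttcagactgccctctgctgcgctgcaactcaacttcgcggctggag
Hspa5, chr2:34771618-34771917: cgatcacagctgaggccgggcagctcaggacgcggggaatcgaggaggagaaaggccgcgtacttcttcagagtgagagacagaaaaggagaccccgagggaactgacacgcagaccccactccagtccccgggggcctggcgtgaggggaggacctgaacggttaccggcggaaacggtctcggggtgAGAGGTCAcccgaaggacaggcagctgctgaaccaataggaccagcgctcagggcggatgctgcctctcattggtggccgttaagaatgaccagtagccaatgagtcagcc
Ptma, chr1:86525931-86526230: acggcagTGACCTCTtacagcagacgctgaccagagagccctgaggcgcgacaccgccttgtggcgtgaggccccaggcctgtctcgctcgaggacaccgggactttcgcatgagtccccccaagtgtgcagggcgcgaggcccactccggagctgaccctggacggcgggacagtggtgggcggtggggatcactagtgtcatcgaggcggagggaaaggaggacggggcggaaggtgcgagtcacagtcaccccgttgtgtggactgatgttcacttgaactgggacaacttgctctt
Plk2, chr13:110394386-110394685: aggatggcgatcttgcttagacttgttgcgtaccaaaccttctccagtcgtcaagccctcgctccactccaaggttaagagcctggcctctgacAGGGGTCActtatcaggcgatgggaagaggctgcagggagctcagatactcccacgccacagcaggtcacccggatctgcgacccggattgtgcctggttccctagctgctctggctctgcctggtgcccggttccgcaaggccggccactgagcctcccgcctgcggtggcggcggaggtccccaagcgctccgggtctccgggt
Amz2, chr11:109425514-109425813: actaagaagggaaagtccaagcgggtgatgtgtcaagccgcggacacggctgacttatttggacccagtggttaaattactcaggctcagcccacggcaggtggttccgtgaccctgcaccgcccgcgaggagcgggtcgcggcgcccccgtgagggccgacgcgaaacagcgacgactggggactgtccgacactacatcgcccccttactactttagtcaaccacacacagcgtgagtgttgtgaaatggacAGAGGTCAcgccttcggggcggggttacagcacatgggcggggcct
Nr2f2, chr7:70361556-70361855: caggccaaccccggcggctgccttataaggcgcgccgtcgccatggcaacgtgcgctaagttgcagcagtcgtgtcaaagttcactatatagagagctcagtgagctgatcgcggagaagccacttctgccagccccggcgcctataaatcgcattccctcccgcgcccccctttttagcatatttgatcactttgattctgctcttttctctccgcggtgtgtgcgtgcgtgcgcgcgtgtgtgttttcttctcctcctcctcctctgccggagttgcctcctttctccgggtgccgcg
Thrb, chr14:17660216-17660515: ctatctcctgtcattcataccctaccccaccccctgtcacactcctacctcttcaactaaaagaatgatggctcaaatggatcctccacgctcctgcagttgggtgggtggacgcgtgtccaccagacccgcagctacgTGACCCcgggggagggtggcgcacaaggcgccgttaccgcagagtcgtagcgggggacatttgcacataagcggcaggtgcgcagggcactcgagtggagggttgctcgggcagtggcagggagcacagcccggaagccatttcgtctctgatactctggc

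In Baz1b the match was centred 16 bp from the peak centre, on the TSS-distal side, and on the strand opposite to the transcript. In Hspa5 and Plk2 the matches lay 43 bp and 52 bp from the centre, and in Amz2 and Ptma they lay 108 bp and 139 bp from it, toward the peak edges. The Nr2f2 peak held neither the extended form nor the core hexamer, and the Thrb peak held the core only.

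In most peaks upstream of a TSS the binding signal was several times the input count and similar to that of peaks elsewhere. The input library had a median of 7 reads per upstream peak (quartiles 5 and 9, range 0 to 21). ChIP replicate 1 had a median of 41 reads (quartiles 30 and 56, range 8 to 241) and ChIP replicate 2 a median of 34 (quartiles 24 and 46, range 7 to 203). Each of the 1099 peaks had more reads in either ChIP library than in the input, a property that the peak calling favours. The upstream peaks took 10.6% of all input reads at peaks, and 11.8% and 11.4% of those of ChIP replicates 1 and 2. The libraries held 73251, 426784 and 364261 reads at all peaks, which are not sequencing depths, so each ratio below is known only up to 1 common factor for each ChIP library.

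With 0.5 added to each count, the median ratio of ChIP to input at upstream peaks was 5.73 in replicate 1 and 4.73 in replicate 2 (mean 5.23 ± 0.703, SD, n = 2 libraries). In edgeR's quasi-likelihood test with the 3 libraries taken as equally deep, 931 of the 1099 peaks were above input at a Benjamini-Hochberg adjusted p under 0.05, or 84.7%, where 80.7% of all 10069 peaks passed. This count followed the assumed depth. It was 1081 with the ChIP libraries taken as 2 times shallower than the input and 0 with them 2 times deeper, when 499 still had an unadjusted edgeR p under 0.05. The replicates ranked the upstream peaks alike: Pearson r of log2 CPM over the 1099 peaks was 0.831 and Spearman rho 0.827, against 0.820 and 0.818 over all peaks. The peaks share the libraries and were selected on their summed count, so these values are descriptive.

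**Figure D1:**
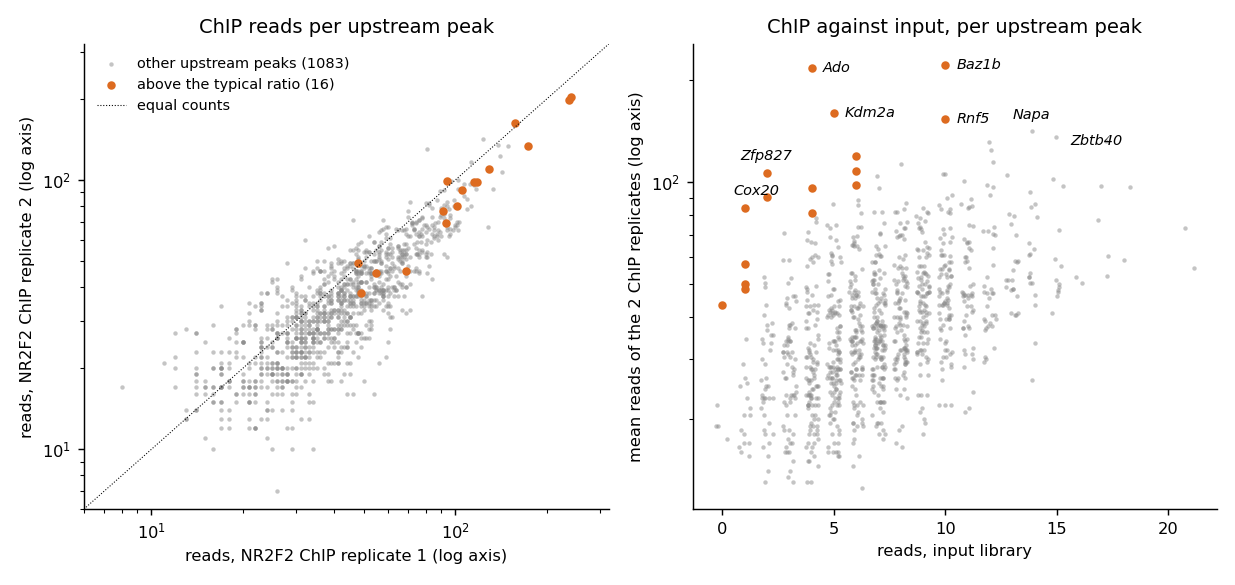
Left, reads of each of the 1099 upstream peaks in ChIP replicate 1 (x axis) and replicate 2 (y axis), both log axes, with a dotted line of equal counts. Right, input reads (x axis, points spread sideways by a small random amount, except the orange ones) against the mean of the 2 ChIP replicates (y axis, log). Orange points are the 16 peaks called above the typical ratio, which had 0 to 10 input reads; most points lie below the line because replicate 1 had more reads at peaks.

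A small set of peaks stood above the others. In a test that does not need the library depths, with TMM scaling over all peaks, edgeR found 16 upstream peaks whose ratio exceeded that of the typical peak (1.46%), while 1.53% of all 10069 peaks were called above. The peak 178 bp upstream of Baz1b, which encodes a subunit of chromatin remodelling complexes, had 10 input reads and 241 and 203 ChIP reads. The peak 398 bp upstream of Ado (chr10:67549353-67549652), the gene of cysteamine dioxygenase, had 4 input reads and 236 and 198 ChIP reads. These 2 peaks had the highest ChIP counts of the 1099. The peak 465 bp upstream of Kdm2a (chr19:4397542-4397841), a histone H3 lysine demethylase that binds CpG islands, had 5 input reads and 157 and 163 ChIP reads. Against the typical peak, the log2 difference in ratio was 3.43 ± 0.44 (SE) for Ado, 2.68 ± 0.46 for Kdm2a and 2.15 ± 0.34 for Baz1b, with edgeR adjusted p-values of 1.08e-10, 3.87e-06 and 8.96e-07.

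Neat1 and Pspc1, whose products are both parts of nuclear paraspeckles, were called as well. Neat1, the long non-coding RNA on which paraspeckles assemble, had 6 input reads and 129 and 110 ChIP reads at 113 bp (chr19:5845593-5845892). Pspc1, which encodes a paraspeckle protein, also had 6 input reads, with 118 and 98 ChIP reads at 146 bp (chr14:56778464-56778763). Their log2 ratios to the typical peak were 1.99 ± 0.48 (SE) and 1.85 ± 0.49, with edgeR adjusted p-values of 0.00415 and 0.0171. Rnf5, which encodes a ubiquitin ligase of the endoplasmic reticulum membrane, had 10 input reads and 173 and 134 ChIP reads at 623 bp (edgeR adjusted p = 0.00394).

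The remaining called peaks had 0 to 6 input reads. Zfp827, a zinc finger gene, had 2 input reads against 115 and 98 ChIP reads, a mean ChIP count 53.2 times the input with an exact interval of 14.6 to 443. Patz1, a zinc finger transcription factor gene, had 2 against 101 and 80 (45.2 times, 12.3 to 376). Cox20, which encodes an assembly factor of cytochrome c oxidase, had 1 against 91 and 77 (84.0 times, 14.9 to 3337). The peaks of Ywhag (a 14-3-3 protein) and Brwd1 (a bromodomain protein) had 1 input read each and 69 and 46, and 55 and 45 ChIP reads. Usp32, a deubiquitinase gene, had no input read and 49 and 38 ChIP reads, at least 16.3-fold and 12.7-fold higher than a floor of 3 counts in the input library. Prdm10, which encodes a PR domain zinc finger protein, had 4 input reads and 94 and 99 ChIP reads, and Ube2g1, a ubiquitin-conjugating enzyme gene, had 4 and 93 and 69. The non-coding gene C130026L21Rik had 6 input reads and 105 and 92 ChIP reads, with an edgeR adjusted p of 0.0437. These intervals and floors cover counting error only.

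The number of calls depended on the scaling and the test more than the folds did. Without TMM factors 12 of the 16 remained called, and with DESeq2 size factors in edgeR 4 did (Ado, Baz1b, Kdm2a and Zfp827). Under those size factors the log2 ratio of Rnf5 went from 1.62 to 1.59, that of Neat1 from 1.99 to 1.97 and that of Cox20 from 4.03 to 4.01. DESeq2's own test called 3 of the 16 (Ado, Baz1b and Kdm2a) but gave 1019 of the 1099 peaks no adjusted p. High reads alone did not place a peak on the list. Napa, the gene of a vesicle fusion protein, had 14 input reads and 149 and 134 ChIP reads (edgeR adjusted p = 0.142), and Zbtb40, a zinc finger gene, had 15 and 138 and 135 (edgeR adjusted p = 0.274). Leaving out either ChIP library leaves 1 library in each group and no test.

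No upstream peak was called below the typical ratio, where 0.0497% of all peaks were. edgeR gave 11 upstream peaks (1.0%) a lower ratio at an unadjusted p under 0.05, where 257 of all peaks (2.55%) had one. The lowest fitted log2 ratio was -1.42, at Adamts15, a secreted metalloprotease gene of the extracellular matrix, with 14 input reads and 33 and 19 ChIP reads (edgeR adjusted p = 0.149). The weakest peak by ChIP count was that of Nab1, a co-repressor of EGR factors, with 6 input reads and 8 and 17 ChIP reads. Several peaks tied for the next place, among them those of Sgk3, a kinase gene, with 3 input reads and 13 and 13 ChIP reads, and Acvr2a, an activin receptor gene, with 4 and 13 and 13. The highest input counts were 21 reads, at Arhgap23, a GTPase-activating protein gene (79 and 68 ChIP reads), and at Ate1, an arginyltransferase gene (65 and 47 ChIP reads).

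Replicate 1 had the larger count at 834 of the upstream peaks, replicate 2 at 230, and 35 were equal. Replicate 1 held 54.0% of the ChIP reads at all peaks. Departure from this share was ranked by how far the exact 95% interval of a peak's own share lay from it. By share alone some peaks with fewer reads went further toward replicate 2, such as Nab1 at 32.0%. The peak of Ppp2r5a, a regulatory subunit gene of protein phosphatase 2A, departed most toward replicate 1, with 54 and 16 reads, a share of 77.1% (exact 95% interval 65.6 to 86.3). The peak 44 bp upstream of the microRNA gene Mir6991 departed most toward replicate 2, with 81 and 130 reads, a share of 38.4% (31.8 to 45.3). Its midpoint lies in a coding exon of 2700081O15Rik. Neither peak was called in the test against the typical ratio.

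Peaks were densest next to the TSS. The distance from the nearer edge had a median of 154 bp (quartiles 70 and 309), and 210 of the 1099 peaks lay within 50 bp while 126 lay beyond 500 bp. The nearest were 6 peaks at 1 bp, among them those of Wdr5, a shared subunit of histone methyltransferase complexes (5 input, 33 and 30 ChIP reads), and Ccdc91 (10 input, 87 and 84 ChIP reads). The farthest were upstream of Slc6a4, the serotonin transporter gene, at 999 bp (8 input, 36 and 25 ChIP reads) and of the non-coding 4930487H11Rik at 991 bp (7 input, 27 and 18 ChIP reads), whose midpoint is in a coding exon of Nrp2. Just outside the limit lay the peaks of Arid1b at 1024 bp (6 input, 23 and 20 ChIP reads) and Camk2n1 at 1025 bp (8 input, 56 and 51 ChIP reads).

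The ratio changed little with distance. Its median in replicates 1 and 2 was 5.67 and 4.66 for peaks at 1 to 50 bp, 5.57 and 4.62 at 51 to 100 bp, 5.65 and 4.51 at 101 to 250 bp, 5.83 and 4.86 at 251 to 500 bp, and 5.86 and 5.31 at 501 to 1000 bp. The highest of the 5 values was in the outermost bin in both replicates, and 2 libraries sharing 1 input allow no test of it. The 16 called peaks lay between 106 and 623 bp, and 0 of the 391 peaks within 100 bp were among them, where 1.53% of all peaks were called above. With at least 10 input reads required, the Zbtb40 peak at 97 bp was called (edgeR adjusted p = 0.0456).

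**Figure D2:**
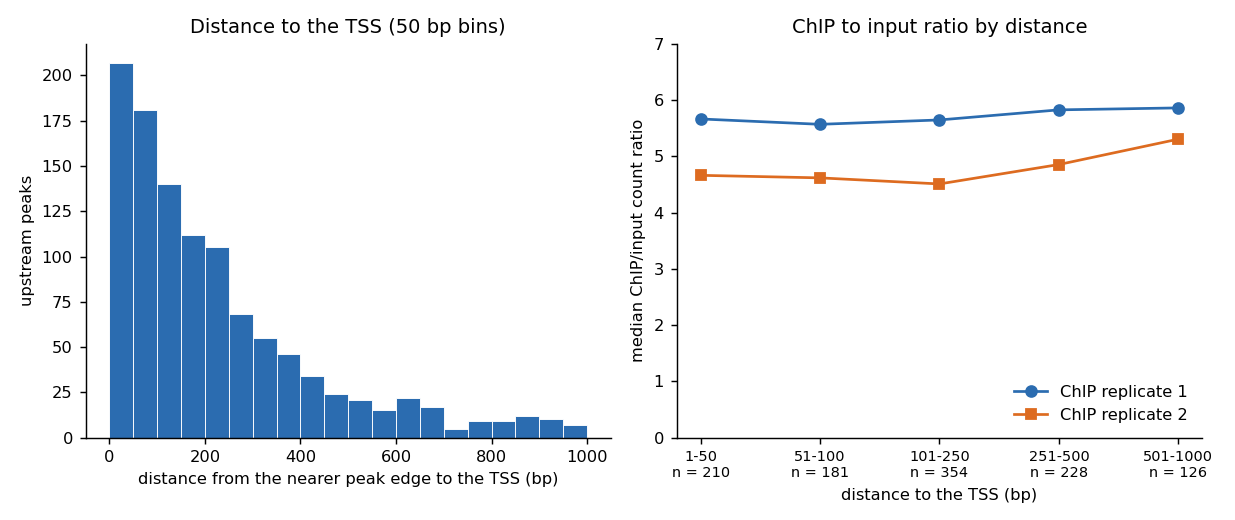
Left, number of upstream peaks (y axis) by distance from the nearer peak edge to the TSS in 50 bp bins (x axis). Right, median ratio of ChIP to input counts with 0.5 added to each (y axis, from 0) in 5 distance bins (x axis, with the number of peaks), for ChIP replicates 1 and 2; the medians stay between 4.51 and 5.86.

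At 966 of the 1099 peaks (87.9%) the midpoint was outside any curated transcript. Of the other 133, 85 lay inside a longer transcript of the same gene, where the rule measured from an internal TSS, and 48 inside another gene only. Nr2f2 itself was of the first kind: its peak was 963 bp upstream of the TSS of 1 transcript and in an intron of another, with 8 input reads and 67 and 53 ChIP reads. So were the peaks of Patz1, of Rbpj, the DNA-binding partner of Notch, and of Tfap2c, a germ cell transcription factor gene. The median ratio was 5.55 and 4.81 at the 85 peaks and 5.72 and 4.72 at the 966. The broader GENCODE annotation placed a TSS inside 198 of the peaks (18.0%), on the same strand in 148 and on the opposite strand in 56, so the name upstream holds for those only in the curated annotation. Among the 16 called peaks, those of Rnf5, Neat1 and Cox20 held such a TSS on the opposite strand and those of Patz1 and Usp32 held such a TSS on the same strand.

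Of the 1087 genes, 12 had 2 upstream peaks. Nrp1, a semaphorin and VEGF co-receptor gene, had peaks at 236 bp (11 input, 54 and 38 ChIP reads) and 918 bp (10 input, 54 and 36 ChIP reads), nearly equal in every library. Hes6, of the HES family of transcription factors, had peaks upstream of each of 2 TSSs, with 85 and 65 and with 69 and 53 ChIP reads. Nectin1, a cell adhesion gene, had unequal peaks, with 95 and 62 ChIP reads over 4 input reads at 17 bp and 55 and 34 over 8 at 686 bp. An additional peak just downstream of a TSS was found at 132 of the 1087 genes, and 1 overlapping another TSS at 25.

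Upstream peaks had a slightly higher ratio than peaks in the 3 positions compared, by 0.2 log2 units or less. The log2 difference of the medians, upstream minus peaks overlapping a single-gene TSS (1880 peaks), was 0.05 in replicate 1 and 0.11 in replicate 2 (0.08 ± 0.04, SD, n = 2). Against the 1891 peaks just downstream of a TSS it was 0.14 and 0.03 (0.09 ± 0.08). Against the 915 peaks 1 to 10 kb from a TSS it was 0.20 and 0.13 (0.16 ± 0.05). All 6 values were above 0, but 2 libraries sharing 1 input allow no test of them, and within each position the peaks spread over more than 2 log2 units.

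**Figure D3:**
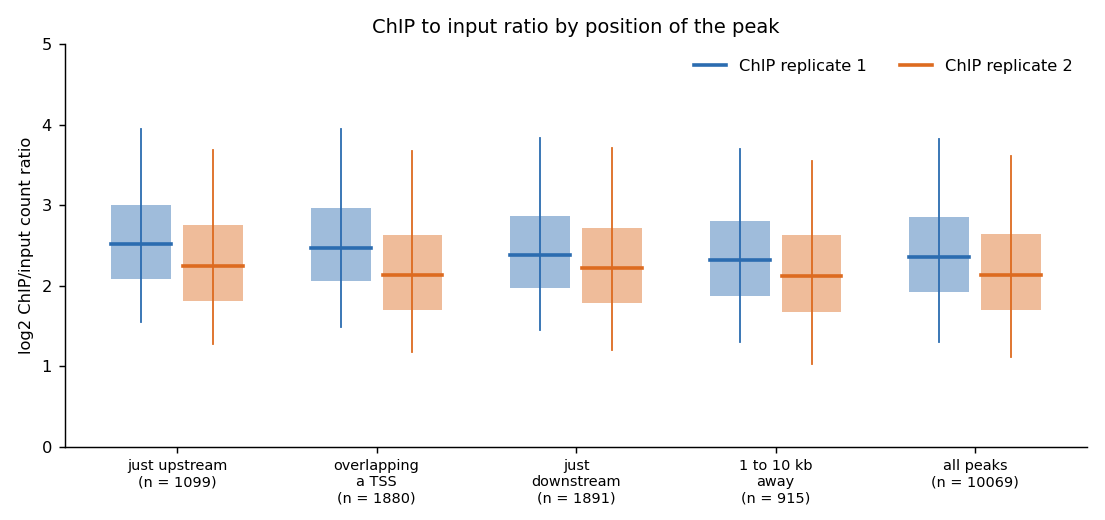
Log2 ratio of ChIP to input counts with 0.5 added to each (y axis) for peaks in 4 positions relative to a TSS and for all peaks (x axis, with the number of peaks), in ChIP replicates 1 (blue) and 2 (orange). Boxes run from the lower to the upper quartile over peaks, thick lines are medians and thin lines run from the 5th to the 95th percentile; the upstream medians are the highest of the 4 positions in both replicates.

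The upstream peaks were rich in GC, and the extended half-site and the core of NR2F2 were more frequent in them than in peaks on a TSS and less frequent than in peaks farther away or in all peaks. Their median GC content was 62.3% and their median ratio of observed to expected CpG 0.714, against 65.7% and 0.827 at peaks overlapping a TSS and 56.3% and 0.328 at peaks 1 to 10 kb away. The extended motif was in 87 of 1099 peaks, or 7.92% (Wilson interval 6.46 to 9.66), against 4.68% of peaks overlapping a TSS, 6.29% just downstream, 15.7% at 1 to 10 kb and 10.5% of all peaks. Moving the same windows 2 kb further upstream gave 3.91% (2.92 to 5.23), and the window 154 bp upstream of each of 31594 curated TSSs gave 2.83%. The core hexamer GGGTCA or AGGTCA, which lies within the extended form, was in 608 peaks (55.3%), against 44.5%, 47.3% and 70.3% in the same 3 positions, 58.9% of all peaks, 24.8% of the moved windows and 27.5% of all promoters. A direct repeat of the core with 1 base between was rare near the TSS, in 0.637% of the upstream peaks, 0.638% of those overlapping a TSS and 0.846% just downstream, and was in 4.04% of those at 1 to 10 kb.

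The 88 matches of the extended motif had no preferred strand, with 45 on the strand of the transcript and 43 opposite, and were split evenly between AGAGGTCA and AGGGGTCA, 44 each. Their centres were within 50 bp of the peak centre in 42 cases, with a median of 51.5 bp. The share with the extended motif was 6.01% (4.0 to 8.93) in the 366 upstream peaks with the lowest mean ChIP count, 6.56% (4.45 to 9.57) in the middle 366 and 11.2% (8.34 to 14.8) in the 367 with the highest. Peaks with the motif had median ratios of 6.71 and 6.33 and those without it 5.63 and 4.63, a log2 difference of 0.25 and 0.45 in replicates 1 and 2 (0.35 ± 0.14, SD, n = 2). Calls above the typical ratio were 1.15% of the peaks with the motif and 1.48% of those without it. Of the 16 called peaks, Baz1b held it, 12 others held the core alone, and Rnf5, Zfp827 and Patz1 held neither.

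**Figure D4:**
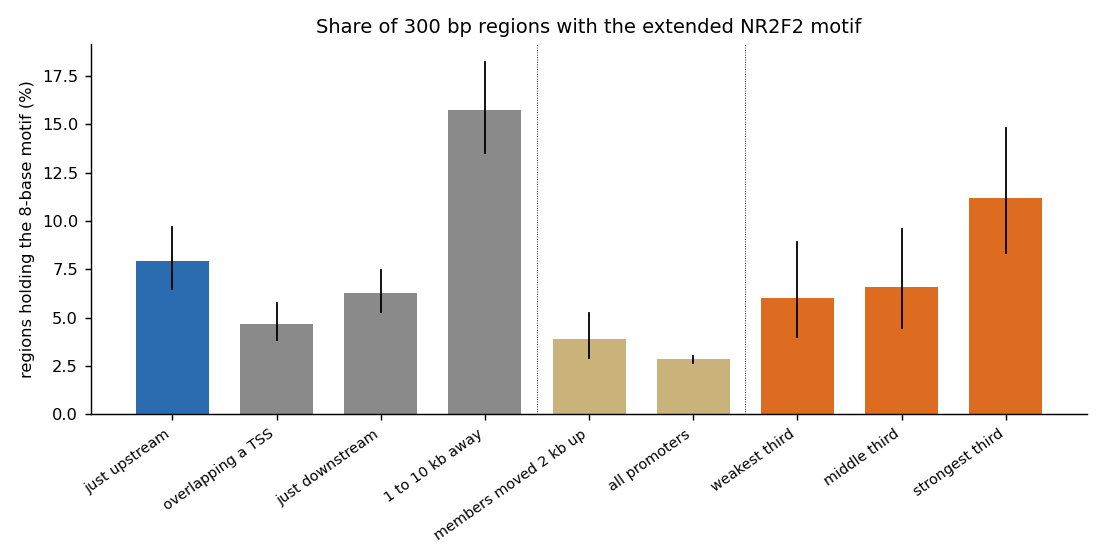
Share of 300 bp regions with AGAGGTCA or AGGGGTCA on either strand (y axis, %), with 95% Wilson intervals as black lines. Blue and grey, peaks by position; tan, the upstream windows moved 2 kb further from the TSS and windows upstream of all curated TSSs; orange, the upstream peaks in 3 groups of mean ChIP count (366, 366 and 367 peaks), where the strongest had 11.2% and the weakest 6.01%.

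Motifs of other promoter factors also differed in share between the positions. The Sp and KLF site GGGCGG was in 55.0% of upstream peaks, 65.5% of those overlapping a TSS, 50.6% just downstream and 23.7% at 1 to 10 kb, with 22.3% of all promoters. The NFY site CCAAT was in 31.6%, against 27.6% overlapping, 17.2% downstream and 33.1% of all promoters. The ETS site CCGGAAG was in 10.8%, against 24.5% overlapping and 8.04% downstream, and the YY1 site AAGATGGC in 2.09%, against 6.86% and 3.28%. The E-box CACGTG was in 13.4%, close to the 13.1% overlapping and above the 8.09% downstream and the 5.12% of all promoters. The site TCAAGGTCA of NR5A1, a steroidogenic nuclear receptor, contains the core hexamer AGGTCA and was in 1.0% of upstream peaks. Its share was 0.745% overlapping a TSS, 1.11% just downstream and 4.26% at 1 to 10 kb. It was in 2.63% of all peaks and 0.665% of all promoters. Base composition differs between these sets, and its part in the shares was not tested. Of the upstream peaks, 786 were CpG rich (GC above 50% and observed to expected CpG above 0.6) and 313 were not. The extended motif was in 6.11% of the first and 12.5% of the second.

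Among lists of genes by family or function, the Krüppel-like, Sp and early growth response factors had the highest share with an upstream peak. These zinc finger proteins bind GC-rich promoters. Of their 30 annotated genes 13 had an upstream peak (43.3%), where 4.15% of all 26180 curated genes and 4.86% of the coding ones did. Of the 30, 0 had a peak overlapping a TSS of genes on 1 strand only, the kind counted here as overlapping, against 7.16% of all genes, 3 had one just downstream, and 19 had a nearest peak at any distance (63.3%, against 30.2%). Sp2 had 13 input reads and 96 and 63 ChIP reads, and Egr1, an immediate early gene, had 6 and 73 and 66. Klf3 had 10 input reads and 62 and 49 ChIP reads, Sp1 12 and 68 and 37, and Sp3 6 and 61 and 34. Sp8 and Klf5 stood at the low end, with 7 and 26 and 26 and with 7 and 24 and 14. Of the 13, edgeR called 0 against the typical ratio (1 had an unadjusted edgeR p under 0.05, Egr1, beside 10.8% of all upstream and 10.4% of all peaks), and their median fitted log2 ratio was 0.19, beside 0.15 over all upstream peaks and 0.02 over all peaks tested. The Sp8 peak held the extended motif.

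Nuclear receptors, the family of NR2F2, had upstream peaks at 5 of 49 genes (10.2%), and 44.9% of the list had a nearest peak at any distance, against 30.2% of all curated genes. Nr3c1, the glucocorticoid receptor gene, had 8 input reads and 85 and 67 ChIP reads and held the extended motif. Nr2c2, the gene of an orphan receptor of the NR2 group, had 6 and 60 and 67. Thrb, a thyroid hormone receptor gene, had 8 and 31 and 34, and Rarg, a retinoic acid receptor gene, had 7 and 31 and 26. Forkhead, Sox and Gata factors had upstream peaks at 6 of 69 genes (8.70%). Of the 69, 8 had a peak just downstream (11.6%), 1 had a peak overlapping a TSS and 29 had a nearest peak at any distance (42.0%). Gata4, which is needed for gonad formation, had 8 input reads and 76 and 62 ChIP reads at 152 bp. Foxo3 had 6 and 82 and 48, and Sox12 had 11 and 87 and 62. edgeR called 0 peaks of either family against the typical ratio, where 1.53% of all peaks were called above. Foxo3 and Foxk2 had an unadjusted edgeR p under 0.05, beside 10.8% of all upstream and 10.4% of all peaks.

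Steroid and some signalling genes had upstream peaks, and peaks at any distance, more often than all curated genes. For fetal Leydig cell and steroidogenesis genes it was 7 of 36 (19.4%). The same number had a peak overlapping a TSS, 2 had one just downstream (5.56%), and 22 had a nearest peak at any distance (61.1%, against 30.2% of all curated genes). The 7 held genes of cholesterol synthesis and of electron supply and no steroidogenic enzyme. Srebf1, which encodes a regulator of lipid synthesis, had 12 input reads and 78 and 62 ChIP reads. Dhcr7, of the last step of cholesterol synthesis, had 9 and 42 and 36. Fdft1, squalene synthase, had 8 and 34 and 26, and Por, the electron donor of microsomal P450 enzymes, had 12 and 43 and 36. The median fitted log2 ratio of the 7, which also held Thrb and Acsl4, was -0.20, below the 0.15 of all upstream peaks. edgeR called 0 of these 7, where 1.53% of all peaks were called above. An unadjusted edgeR p under 0.05 was found for 0 of them, beside 10.8% of all upstream and 10.4% of all peaks.

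The Notch list had upstream peaks at 6 of 38 genes (15.8%), the VEGF list at 3 of 23 (13.0%) and the TGF-beta, activin and BMP list at 8 of 50 (16%). These genes also had peaks in other positions: 13.2% of the Notch genes had one overlapping a TSS and 10.5% one just downstream, 21.7% of the VEGF genes and 16% of the TGF-beta family genes had one just downstream and 4.35% and 2% one overlapping a TSS, and 60.5%, 60.9% and 54% of the 3 lists had a nearest peak at any distance, against 30.2% of all curated genes. Dtx4, a ubiquitin ligase of the Notch pathway, had 5 input reads and 95 and 78 ChIP reads, a log2 ratio of 1.79 ± 0.55 (SE) to the typical peak with an edgeR adjusted p of 0.0626. Rbpj had 8 and 57 and 65, Notch2, a receptor gene, 5 and 23 and 35, and Hey2, a Notch target gene, 3 and 29 and 18. Of the receptors of the TGF-beta family, Bmpr2 had 3 input reads and 45 and 31 ChIP reads, Acvr2b 4 and 32 and 26, Bmpr1a 2 and 23 and 35, Tgfbr1 2 and 27 and 23, and Acvr2a 4 and 13 and 13. Among its inhibitors, Smad6 had 2 and 46 and 55, Skil 2 and 25 and 42, and the secreted BMP antagonist Nog 3 and 31 and 24. The 8 peaks of this list had 2 to 4 input reads and a median of 2.5, against 7 over all upstream peaks. Their median ratios of 9.80 and 9.20 rest on those few reads. edgeR called 0 peaks of the 3 lists, where 1.53% of all peaks were called above. An unadjusted edgeR p under 0.05 was found for 2 of the 8 TGF-beta family peaks, Smad6 and Skil. For the Notch list it was 1 of 7 peaks (Dtx4) and for the VEGF list 0 of 4. Over all upstream and all peaks it was 10.8% and 10.4%. In the VEGF list, Nrp1 stood beside Shb, an adaptor protein gene (5 and 51 and 35), and Epas1, which encodes a hypoxia-inducible factor (9 and 39 and 38).

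The other signalling and cell type lists had upstream peaks at 0 to 4 genes each, where 4.15% of all curated genes had one. A nearest peak at any distance was at 54.1% of hedgehog and Wnt, 45.1% of matrix, 44.4% of growth factor and 50% of interstitial genes. It was at 28.6% of Sertoli and 20% of germ cell genes, against 30.2% of all curated genes. In that order of lists, 17.6%, 9.84%, 13.3%, 15%, 4.76% and 0% had a peak just downstream, against 7.14%. Hedgehog and Wnt genes had 2 of 74, Fzd5, a Wnt receptor gene that held the extended motif (7 input, 36 and 31 ChIP reads), and Ctnnb1, the gene of beta-catenin (7 input, 29 and 22 ChIP reads). Extracellular matrix genes had 4 of 122, among them the laminin gene Lamc1, with the extended motif (6 input, 53 and 33 ChIP reads), Nid2, nidogen (12 input, 55 and 39 ChIP reads), and Postn, periostin (5 input, 23 and 33 ChIP reads). Of growth factor genes, 2 of 45 had such a peak, Igfbp4, an IGF-binding protein gene (10 input, 63 and 48 ChIP reads), and Fgf18 (7 input, 40 and 26 ChIP reads). Interstitial cell genes had 2 of 40, Gata4 and Nr2f2. Of 21 Sertoli cell genes 0 had one. Germ cell genes had 2 of 30, Tfap2c (7 input, 54 and 40 ChIP reads) and Tex14, which is needed for intercellular bridges (1 input, 22 and 28 ChIP reads), and both peaks held the extended motif. Small nucleolar, small nuclear and microRNA genes had 16 of 1331, or 1.20%.

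Ribosomal protein, proteasome and respiratory chain genes were seldom marked upstream and more often on the TSS. Cytosolic ribosomal protein genes had an upstream peak at 1 of 84 (1.19%) and a peak overlapping a TSS at 24 (28.6%). Mitochondrial ribosomal protein genes had 1 and 17 of 78, proteasome genes 1 and 12 of 51, and respiratory chain and ATP synthase genes 2 and 22 of 88. The members were Rps14, 9 bp from its TSS (10 input, 81 and 52 ChIP reads), Mrpl53 at 11 bp (11 input, 96 and 74 ChIP reads), Psmd5 at 108 bp (6 input, 40 and 21 ChIP reads), Cox5b at 22 bp (18 input, 109 and 85 ChIP reads) and Cox5a at 1 bp (5 input, 66 and 54 ChIP reads). Splicing factor genes, with 7 upstream and 12 overlapping of 79, and translation factor genes, with 7 and 11 of 72, had upstream shares of 8.86% and 9.72%, above that of all genes. Zfp zinc finger genes had 23 upstream and 74 overlapping of 403, and Zfp827 was the 1 member of any list called above the typical ratio. The lists overlap in places and differ in promoter composition, whose part was not tested.

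**Figure D5:**
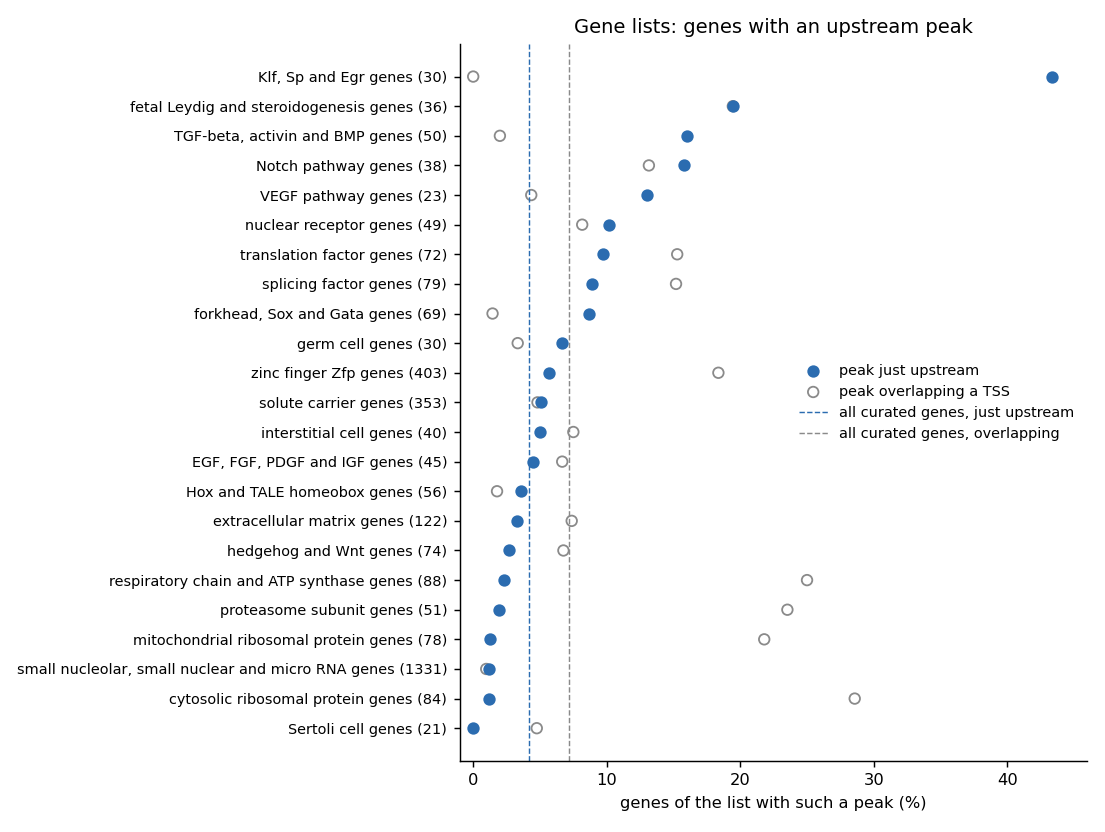
Share of the genes of each list (y axis, number of annotated genes in brackets) with a peak just upstream of a TSS (filled blue) or overlapping a TSS (open grey), in percent (x axis). Dashed lines give the shares of all curated genes, 4.15% and 7.16%; the Klf, Sp and Egr genes stand at 43.3% upstream and 0% overlapping, and the ribosomal, proteasome and respiratory chain lists have the opposite order.

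Small RNA genes and carriers gave some of the stronger peaks outside these lists of pathways. The microRNA gene Mir148a had 5 input reads and 84 and 63 ChIP reads at 925 bp, and Mir210, a microRNA gene induced by hypoxia, had 11 and 75 and 53 at 315 bp. The 4 U3 small nucleolar RNA genes Rnu3b1, Rnu3b2, Rnu3b3 and Rnu3b4, whose product takes part in processing of ribosomal RNA, each had a peak 153 to 241 bp upstream, all on chromosome 11. Rnu3b1 had 5 input reads and 67 and 49 ChIP reads, Rnu3b3 5 and 45 and 38, Rnu3b4 3 and 32 and 21, and Rnu3b2 3 and 28 and 22. The 4 genes are near copies of each other, so reads of 1 could have been placed at another despite the authors' filter on mapping quality, and their separate counts are uncertain. Solute carrier genes had upstream peaks at 18 of 353 (5.10%), among them Slc25a4, which encodes the mitochondrial ADP/ATP carrier (8 input, 92 and 75 ChIP reads), and Slc2a4, an insulin-regulated glucose transporter gene (8 input, 83 and 53 ChIP reads). Hox and TALE homeobox genes had 2 of 56, among them Hoxc10 (7 input, 72 and 69 ChIP reads). edgeR called 0 peaks of these 3 lists against the typical ratio, with an unadjusted edgeR p under 0.05 at 4 of the 16 small RNA peaks (3 of them above the typical ratio), 3 of the 18 carrier peaks and 0 of the 2 homeobox peaks, beside 10.8% of all upstream and 10.4% of all peaks.

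Upstream peaks on the X chromosome had few input reads and higher ratios. There were 16, at genes such as Usp9x, a deubiquitinase gene (4 input, 44 and 32 ChIP reads), Pgk1, of glycolysis (3 input, 36 and 25 ChIP reads), Gpc3, a glypican gene (4 input, 28 and 18 ChIP reads), and Acsl4, an acyl-CoA synthetase gene of the Leydig list (2 input, 25 and 28 ChIP reads). Their median input was 2 reads, against 7 on the autosomes, and their median ChIP counts were 24.5 and 21.5, against 41 and 34. The median ratio was 10.04 and 8.94, against 5.67 and 4.70 at autosomal upstream peaks and 6.14 and 5.29 at all 202 X-linked peaks. Those 202 peaks also had few input reads, with a median of 4 against 7 at all autosomal peaks. The input of 3 of the 16, Cask, Rps6ka3 and Rap2c, was 0 reads, with 23 and 21, 24 and 14, and 24 and 11 ChIP reads. Against the floor of 3 counts these were at least 7.67-fold and 7.0-fold, 8.0-fold and 4.67-fold, and 8.0-fold and 3.67-fold higher. edgeR called 0 of the 16, of which 5 had an unadjusted edgeR p under 0.05, where 10.4% of all peaks did, and 0 held the extended motif, which for 16 peaks allows a share of up to 19.4% (Wilson).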

How the data were processed

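The deposited values were raw read counts per peak, 1 table for each library, with no normalisation. Per the labels and the study's methods, the authors trimmed single-end reads of 75 nt with TrimGalore 0.6.7, mapped them to mm10 with Bowtie 2 in local mode, filtered them on mapping quality, removed duplicates with Picard 1.110, merged the ChIP replicates, called peaks with HOMER 4.11.1, resized them to 300 bp and removed blacklisted regions. The rule that assigned reads to peaks was not given in the sources used here. Since duplicates were removed, counts can be capped at very strong peaks.

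Peaks were placed against 45756 curated RefSeq transcripts of 26180 genes (GRCm38.p6, the assembly of mm10). The members and gene lists were chosen with earlier results of these data known. Counts of all 10069 peaks in the 3 libraries were fitted by the quasi-likelihood method of edgeR 4.0.16 in R 4.3.3, and p-values were adjusted over all peaks by Benjamini-Hochberg with a threshold of 0.05. DESeq2 1.42.0 served as an alternative. The fits assume that the single input varies like the ChIP libraries. They were checked on simulated counts. Ratios had 0.5 added to each count, folds over an input of 0 were given as bounds against a floor of 3 counts, and 95% intervals were Wilson's for shares of peaks and exact for counts of reads. Values over 2 libraries are given with no test. The precision of a ratio is set by the input, with a median of 7 reads per peak.

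Named peaks were those with the 6 highest mean ChIP counts, the called peaks (the 12 with the most reads, and others because the set was counted), the 2 nearest to and 2 farthest from a TSS and the 2 just outside the limit, the most discordant peak in each direction, the 2 with the highest input, the 2 with the lowest ChIP count (ties broken by position), the 5 strongest with the extended motif, and list members. List members beyond the 15 strongest of the cell type and signalling lists, members of other families, X-linked peaks and genes with 2 peaks were named after their values were seen. Some of the genes these rules selected are not reported here.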

Additional observations from a re-analysis of the deposited data

How the results depend on the processing

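The 3 differences between positions kept their sign and moved by less than 1 SD with a pseudocount of 5, summed counts, at least 10 input reads and no X or Y peaks. Without 1 ChIP library the log2 difference ranged from 0.05 to 0.11 against peaks overlapping a TSS, from 0.03 to 0.14 against downstream peaks and from 0.13 to 0.20 against peaks 1 to 10 kb away. The median ratio ranged from 4.73 to 5.73 in the same way, was 3.56 with a pseudocount of 5, which pulls low input counts up, and 4.16 at peaks with at least 10 input reads. Calls above the typical ratio numbered 4 with DESeq2 size factors in edgeR, 3 with DESeq2 and 7 among the 237 peaks with at least 10 input reads. The last 7 shared Baz1b and Rnf5 with the 16 and added Fasn, Hspa5, Napa, Paxbp1 and Zbtb40, in a test over fewer peaks. The cause of the lost calls was otherwise not tested. Among the 12 called peaks recomputed 1 by 1, no sign changed where an alternative gave an adjusted p. Calls above input at equal depth numbered 0 with the ChIP libraries 2 times deeper and 222 of 237 with at least 10 input reads. The motif share was 55.3% for the core only, 0.637% for its direct repeat and 4.82% in the central 150 bp. Pearson r of the replicates was 0.745 among upstream peaks with at least the median summed ChIP count, a narrower range of counts. The rule gave 996 peaks with a limit of 500 bp, 1181 with both-strand peaks kept and, chosen after seeing the data, 901 without peaks holding a GENCODE TSS. No paired analysis was possible because the single input carries no replicate number. Low input counts limit the precision of single ratios.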
